A study of Arabidopsis thaliana with 91 samples.

Results

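The histone variant H2A.Z was profiled by chromatin immunoprecipitation in Arabidopsis thaliana leaves, and SDG2-ZF plants were compared with Col-0 plants. This comparison took 5 of the 91 samples of the series, of which 50 had a deposited peak list. SDG2-ZF carries the catalytic domain of SDG2, a methyltransferase for lysine 4 of histone H3, fused to the artificial zinc finger ZF108 and expressed from the broadly active UBQ10 promoter in the Columbia-0 background. Col-0 is the same ecotype without the fusion. ZF108 was designed for the promoter of FWA, a homeobox gene kept silent in Col-0 by DNA methylation, and it also binds many other sites of the genome. All plants were 4-5 weeks old, the tissue was leaf, and the chromatin was crosslinked and precipitated with an antibody against H2A.Z. SDG2-ZF had 3 libraries, replicates 1 and 3 in the set named SET4 and replicate 2 in SET5, and Col-0 had 1 library in each of these sets. A second pair from SET6, also with 1 library each, compared SDG2-ZF in rdd with rdd itself, a triple mutant in the DNA demethylase genes ROS1, DML2 and DML3. Libraries of histone H3 marks from SDG2-ZF, Col-0, SDG2-ZF in rdd and rdd were read beside these. So were libraries from plants with Myc-tagged ROS1, with or without SDG2-ZF. Replicates were called independent in the study's methods, but the labels do not tie them to separate lines or plantings, so a p-value here speaks for the spread among these libraries only, which may be technical.

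H2A.Z replaces the common histone H2A in some nucleosomes and is put in place by the SWR1 remodelling complex. In Arabidopsis it sits just after the start of most genes and spreads over the body of genes that are quiet or that respond to the environment, and it is largely missing from methylated DNA. Trimethylation of lysine 4 on histone H3 (H3K4me3) marks the starts of active genes. The question of the comparison was whether H2A.Z builds up where a tethered methyltransferase adds H3K4me3.

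Segments were stretches of 100 bp or more that carried peaks in all libraries of one genotype. They were called gained when all SDG2-ZF libraries and no Col-0 library had a peak there, and lost when both Col-0 libraries and no SDG2-ZF library did. SDG2-ZF gained 68 H2A.Z segments (0.649% of its 10485) and lost 462 (2.27% of the 20393 of Col-0), while 9717 segments were covered in all 5 libraries. Both counts rested on single libraries, since leaving out 1 library gave 87 to 724 gained segments (724 without Col-0 replicate 1) and 477 to 4747 lost ones (4747 without SDG2-ZF replicate 2). The value given for a peak is its fold, the enrichment over background listed by the authors' peak caller, and the sources used here do not settle whether that background came from the library itself or from an input control. The 5 peak lists were of unequal length. They held 18658, 29052 and 12217 peaks in SDG2-ZF replicates 1, 2 and 3, and 28280 and 21273 in Col-0 replicates 1 and 2, so in SET4 the SDG2-ZF lists were the shorter ones and in SET5 the SDG2-ZF list was the longer one. Peaks lay at the starts of 52.2%, 72.7% and 34.6% of coding genes in SDG2-ZF and of 74.0% and 60.5% in Col-0, with a start taken as 300 bp before to 700 bp after the first base. The SET6 lists were unequal too, with 30556 peaks in SDG2-ZF in rdd and 21066 in rdd. Their lowest −log10 q was 1.31, against 2.00 to 2.01 in the lists of SET4 and SET5. The study lists fewer mapped reads for H2A.Z in rdd than in SDG2-ZF in rdd. In bulk tissue a peak in few cells and a weak peak in many cells cannot be told apart.

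The strongest gained segments are shown by sequence because many of them shared a repeat. EXT12 (AT4G13390) and EXT6 (AT2G24980) encode extensins, hydroxyproline-rich proteins of the cell wall whose serine-proline repeats are crosslinked in the wall and several of which are known from root hairs. The 300 bases at the midpoint of each segment lie at chr4:7784465-7784764 and chr2:10623797-10624096, both on the plus strand and in coding exons. Capitals mark the letters TCNCCNCCNCC, which spell the start of a serine codon followed by proline codons where they fall in frame. All positions are on TAIR10, and the bases are those of the RefSeq copy of that assembly, in the direction of the gene.
EXT12: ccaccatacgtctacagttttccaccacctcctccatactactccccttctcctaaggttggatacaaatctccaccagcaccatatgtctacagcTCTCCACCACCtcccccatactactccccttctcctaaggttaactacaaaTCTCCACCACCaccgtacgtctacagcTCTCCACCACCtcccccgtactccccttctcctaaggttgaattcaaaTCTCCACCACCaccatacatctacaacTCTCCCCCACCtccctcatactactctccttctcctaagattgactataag
EXT6: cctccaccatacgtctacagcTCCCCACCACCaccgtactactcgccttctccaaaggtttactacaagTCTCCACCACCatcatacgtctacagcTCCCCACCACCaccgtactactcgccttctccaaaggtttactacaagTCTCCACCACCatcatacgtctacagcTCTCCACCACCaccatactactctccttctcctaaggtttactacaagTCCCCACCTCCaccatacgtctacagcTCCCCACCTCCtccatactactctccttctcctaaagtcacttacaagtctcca
The letters occurred 5 times in the stretch of EXT12 and 7 times in that of EXT6.

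MIR156a, XTH33 and FWA stand for other kinds of segment. MIR156a (AT2G25095) encodes a microRNA that keeps plants juvenile by holding down SPL transcription factors, and its gained segment covered nearly the whole precursor (segment chr2:10676365-10676572, precursor 10676451 to 10676573, minus strand). In the stretch chr2:10676319-10676618 capitals mark the annotated mature miRNAs, and in the miRNAs themselves they mark the seed, bases 2 to 8.
MIR156a: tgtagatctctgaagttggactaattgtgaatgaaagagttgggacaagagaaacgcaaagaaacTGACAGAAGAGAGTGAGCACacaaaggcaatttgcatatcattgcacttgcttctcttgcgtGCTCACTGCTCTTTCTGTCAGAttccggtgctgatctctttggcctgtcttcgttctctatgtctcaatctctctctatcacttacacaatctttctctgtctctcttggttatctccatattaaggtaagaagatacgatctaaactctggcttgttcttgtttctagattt
miR156a-5p: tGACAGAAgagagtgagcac
miR156a-3p: gCTCACTGctctttctgtcaga
XTH33 (AT1G10550) encodes a xyloglucan transferase of the cell wall, and its gained segment in a coding exon coincided with gained H3K4me3. The stretch chr1:3479283-3479582 (minus strand) lies wholly inside that segment and is therefore in capitals throughout.
XTH33: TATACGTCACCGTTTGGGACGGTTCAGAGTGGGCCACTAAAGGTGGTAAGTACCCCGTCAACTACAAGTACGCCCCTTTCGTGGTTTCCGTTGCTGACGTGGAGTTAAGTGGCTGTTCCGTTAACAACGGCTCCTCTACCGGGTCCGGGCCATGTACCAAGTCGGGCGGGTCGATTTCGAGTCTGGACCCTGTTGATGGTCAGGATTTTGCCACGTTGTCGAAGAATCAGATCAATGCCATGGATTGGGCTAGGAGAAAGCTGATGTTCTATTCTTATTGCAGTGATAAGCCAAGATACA
FWA (AT4G25530), the gene the zinc finger was made for, held a lost segment in a coding exon near its 3′ end, and capitals mark it within chr4:13041447-13041746 (plus strand).
FWA: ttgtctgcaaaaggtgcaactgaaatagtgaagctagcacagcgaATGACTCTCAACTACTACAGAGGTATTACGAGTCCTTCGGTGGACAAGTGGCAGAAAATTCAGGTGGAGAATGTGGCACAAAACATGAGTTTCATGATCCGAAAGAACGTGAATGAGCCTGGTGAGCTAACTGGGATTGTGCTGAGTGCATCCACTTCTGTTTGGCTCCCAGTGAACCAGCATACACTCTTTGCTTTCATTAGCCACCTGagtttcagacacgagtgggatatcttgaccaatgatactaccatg

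The gained segments were 112 to 1292 bp wide with a median of 246.5 bp. Their folds in SDG2-ZF replicates 1, 2 and 3 had medians of 2.22, 3.32 and 2.37. By −log10 p they stood at median percentiles of 35.4, 74.6 and 34.8 in these lists, so most were ordinary peaks and not the strongest of their library. The nearest Col-0 peak was a median of 588.5 bp away. At the limits of the rule, the shortest gained segment had 112 bp, and 15 further stretches without a Col-0 peak were too short, the longest at 93 bp. Among segments not called, the smallest overlap with a Col-0 peak was 19 bp.

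By the lowest fold over the 3 libraries, MYBR1 (AT5G67300, also MYB44), a transcription factor gene of stress responses, came first, although the midpoint of its segment lay in a coding exon of the neighbouring gene AT5G67310. It had folds of 4.56, 5.13 and 6.72 in SDG2-ZF replicates 1, 2 and 3 and no Col-0 peak over its 122 bp, but a Col-0 peak began 48 bp away, neither set called it on its own, and neither library of the rdd pair had a peak there. EXT12 had folds of 3.11, 6.67 and 3.44 in SDG2-ZF and 3.72 in SDG2-ZF in rdd, and no peak in Col-0 or rdd. Its segment of 1292 bp was the widest of the 68 and covered most of the gene. The extensin gene AT4G08410 followed with 3.04, 5.37 and 3.32 in SDG2-ZF, and XTH33 with 2.89, 4.97 and 2.93. AT5G06630 (2.85, 4.11 and 4.00), the ankyrin repeat gene AT1G14500 (2.82, 2.70 and 2.80) and MIR156a (2.68, 3.53 and 2.62) came next, and the extensin genes EXT11 (AT5G49080, annotated as a pseudogene), EXT6 and EXT10 (AT5G06640) completed the first 10. Apart from MYBR1, each of these 10 segments had a peak in SDG2-ZF in rdd (fold 2.45 to 4.55) and none in rdd. Of the first 10, 6 lay in extensin genes.

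Extensin genes were then followed as a family, with a list of 26 genes annotated as extensins that was made after these values were seen and is therefore only described. A gained segment lay in the region of 9 of the 26 (1 kb upstream to the end of the gene), 8 of which were among the 25 coding members, against 75 of all 27444 coding genes (0.273%). None of the 26 had a lost segment, against 514 of all coding genes (1.87%). H2A.Z peaks lay over 20, 25 and 20 of the 26 genes in SDG2-ZF replicates 1, 2 and 3, and over 16 and 12 in Col-0 replicates 1 and 2. In the full SET6 lists they lay over 24 genes in SDG2-ZF in rdd and over 9 in rdd. With both SET6 lists at 21066 peaks the numbers were 21 and 9, beside 69.2% and 66.0% of all coding genes. With each list reduced to its 12217 peaks of highest −log10 p, the length of the shortest list, the numbers were 18, 20 and 20 in SDG2-ZF and 9 and 10 in Col-0. The same H2A.Z lists led to the choice of these genes, so this gap restates the calls and tests nothing. With the same reduction, the share of all coding genes with a peak was 46.6%, 48.1% and 44.3% in SDG2-ZF and 48.7% and 47.7% in Col-0. From the same lists, segments in 7 of the extensin genes were gained in each set on its own.

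**Figure D1:**
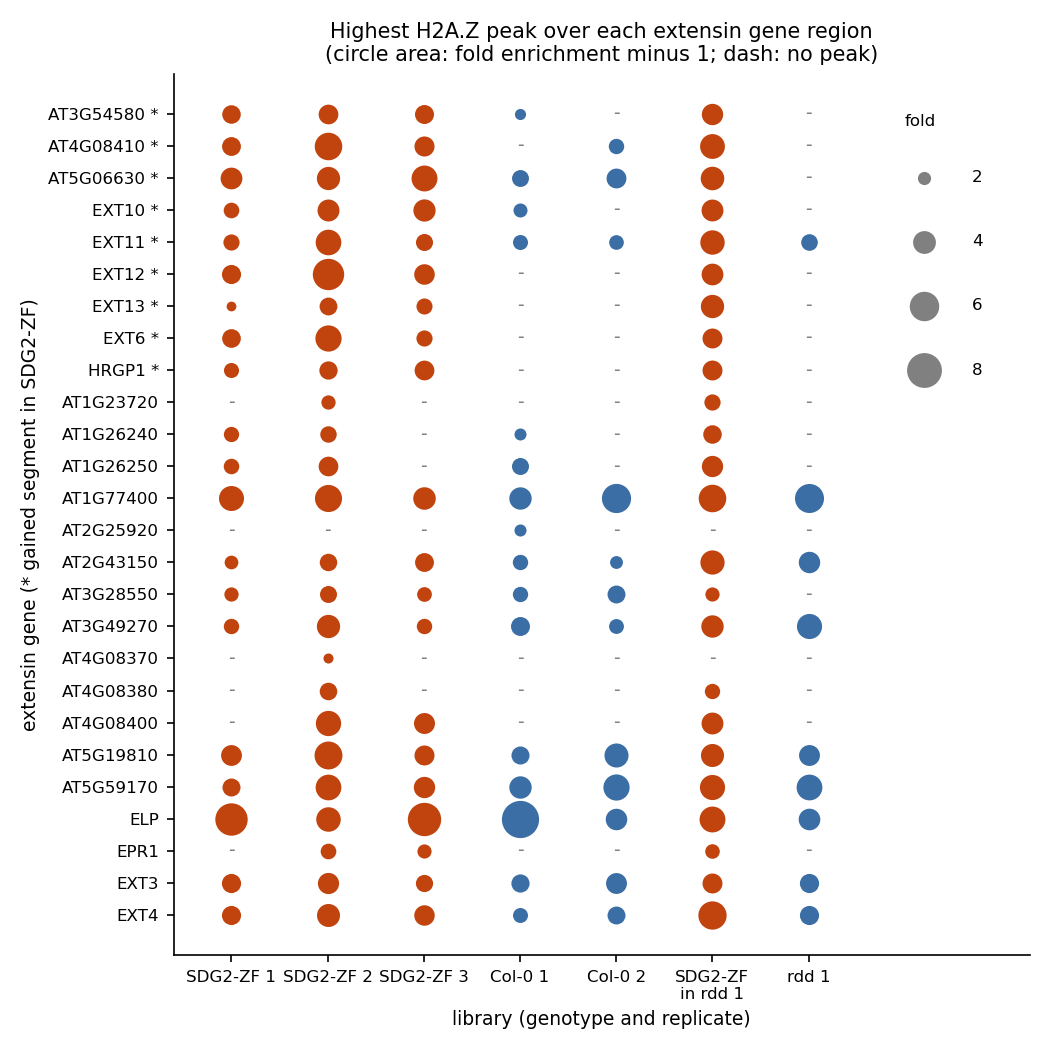
The highest H2A.Z peak over the region of each of the 26 extensin genes (vertical axis) in each library (horizontal axis), with the area of a circle showing its fold minus 1 and a dash showing no peak. Stars mark the 9 genes with a gained segment, among which EXT12, EXT13, EXT6 and HRGP1 had a peak in every library with SDG2-ZF and none in Col-0 or rdd.

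Within the family the contrast was clearest in 4 genes. EXT6 had folds of 3.01, 4.96 and 2.51 in SDG2-ZF, HRGP1 (AT3G54590) had 2.31, 2.92 and 3.25, and EXT13 (AT5G35190) had 1.55, 2.83 and 2.49, and like EXT12 they had no Col-0 peak anywhere in the gene region. At EXT10 the SDG2-ZF folds were 2.41, 3.78 and 3.85 against 2.13 in Col-0 replicate 1 and no peak in replicate 2. At AT5G06630 the highest peaks of the gene region had 3.73, 4.11 and 4.86 in SDG2-ZF against 2.65 and 3.27 in Col-0, so this gene was not free of H2A.Z in Col-0. Other members, such as AT5G19810 with 3.49, 5.49 and 3.30 in SDG2-ZF and 2.88 and 4.33 in Col-0, had peaks in all 5 libraries with overlapping folds. At ELP the highest peak was in Col-0 replicate 1. Repeats limit these values, since 7 of the 10 gained segments at extensin genes held a word of 50 bases that occurs elsewhere in the genome, against 5 of the other 58, and reads from such words can be placed on either copy. The part this played in the result was not tested.

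None of the 26 extensin genes had an H3K4me3-gained segment, against 1530 of all 27444 coding genes (5.57%). At that share a list of 26 genes would hold few or none, so this does not set extensins apart. ELP had H3K4me3 folds of 5.02, 5.92 and 4.37 in SDG2-ZF and 1.80 in Col-0 replicate 2, with no peak in Col-0 replicate 1. Of the 10 gained H2A.Z segments at extensin genes, 8 had no H3K4me3 peak in any of the 3 SDG2-ZF libraries of SET1 and none had one in Col-0. The rule for H2A.Z segments did not use H3K4me3. H3K4me3-gained segments were called by the same rule from the H3K4me3 lists of SET1 (3 SDG2-ZF and 2 Col-0 libraries), which gave 1398, and stand here for the sites reached by the fusion because coordinates of zinc finger sites were not used here. They were overlapped by 16 of the 68 gained H2A.Z segments (23.5%, Wilson 95% interval 15.0 to 34.9), by 14 of the 462 lost ones (3.03%, 1.81 to 5.02) and by 511 of the 9717 shared ones (5.26%). Intervals of this kind cover counting error only. With each set called on its own, as described below, the shares of gained and shared segments lay closer together. All 16 lay among the 58 gained segments outside extensin genes.

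Of the 16 segments, 10 had their midpoint in a coding exon, 1 in a 5′ UTR, 1 in a 3′ UTR, 1 in a pseudogene, 1 upstream of AIG2 and 2 between genes. FUS3 (AT3G26790), a B3 transcription factor of seed maturation, had H2A.Z folds of 2.39, 4.47 and 2.1 in SDG2-ZF and no peak in Col-0, and 3.85 in SDG2-ZF in rdd against no peak in rdd. Its H3K4me3 folds were 2.08, 2.81 and 2.30 in SDG2-ZF, with no peak in Col-0. The segment, at chr3:9855584-9855933, had its midpoint in the 5′ UTR and was gained in SET4, in SET5 and in the rdd pair. CR4 (AT3G59420), a receptor kinase of epidermal differentiation, had H2A.Z folds of 2.18, 4.51 and 2.43 in SDG2-ZF, and the phospholipase gene NPC4 (AT3G03530) had 2.49, 4.11 and 2.06. XTH33 had H3K4me3 folds of 2.30, 3.70 and 2.95 in SDG2-ZF, and AT1G14500 had 2.49, 2.28 and 2.35. The highest H3K4me3 folds of the 16 were those of AT4G29200, with 5.56, 6.30 and 3.66 beside H2A.Z folds of 2.14, 3.93 and 2.37. Among the 16, AT4G28350 alone had an H2A.Z peak in rdd (2.59, against 5.60 in SDG2-ZF in rdd).

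Over all 68 gained segments, H3K4me3 peaks were more frequent in every SDG2-ZF library than in Col-0. They covered 44.1%, 66.2% and 54.4% of the segments in SDG2-ZF replicates 1, 2 and 3 and 16.2% and 14.7% in Col-0. In rdd the values were 69.1% and 54.4% with SDG2-ZF and 14.7% and 10.3% without. Acetylation of lysine 14 on histone H3 (H3K14ac), a mark of active chromatin, was present at 41.2% and 33.8% in SDG2-ZF and at 27.9% and 26.5% in Col-0. H3K14ac was present at 64.5% and 65.6% of the lost segments in SDG2-ZF and at 63.0% and 62.1% in Col-0, and at 66.6% and 65.4% of the shared ones in SDG2-ZF and 66.6% and 68.2% in Col-0. Myc-tagged ROS1, a DNA demethylase, had peaks at 25% and 16.2% of the gained segments in plants that also carried SDG2-ZF and at 8.82% and 13.2% in plants with the tagged ROS1 alone. At lost segments the ROS1 shares were 17.7% and 1.30% with SDG2-ZF and 10.4% and 3.68% without. At shared segments they were 43.9% and 19.5% with SDG2-ZF and 28.7% and 22.5% without, so ROS1 peaks were more frequent there than at gained ones. At the 462 lost segments H3K4me3 peaks lay over 54.5%, 59.5% and 58.2% in SDG2-ZF and 47.4% and 53.2% in Col-0, and at the shared segments over 57.1%, 59.7% and 61.0% in SDG2-ZF and 49.4% and 51.2% in Col-0. The SDG2-ZF and Col-0 libraries of H3K4me3 thus did not overlap at gained, lost or shared segments, but lay closer together at the lost and shared ones. Lost H2A.Z segments had H3K4me3 about as often as shared ones, and no less often in SDG2-ZF than in Col-0.

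**Figure D2:**
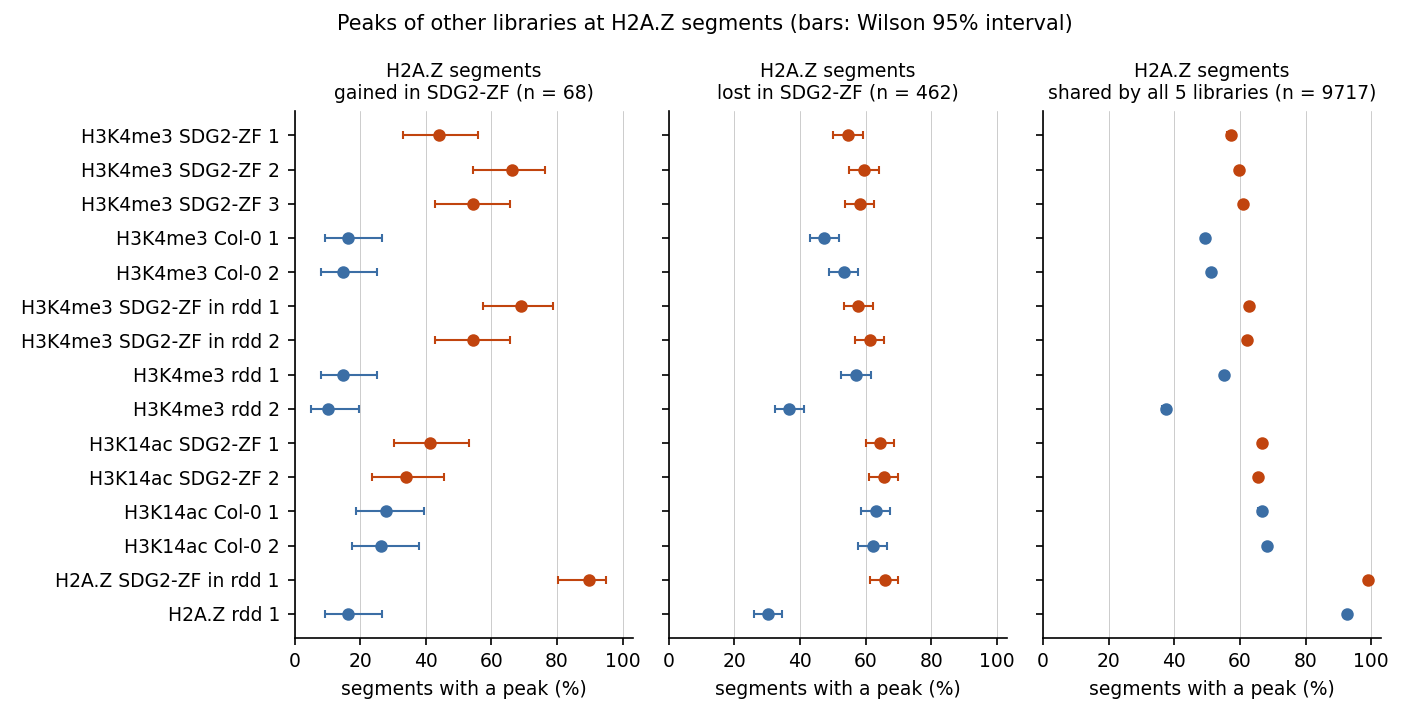
Share of the gained, lost and shared H2A.Z segments (horizontal axis, percent) with a peak in each library of another mark or of the rdd pair (vertical axis), as points with Wilson 95% intervals. At gained segments the H3K4me3 shares ran from 44.1% to 69.1% in libraries with SDG2-ZF and from 10.3% to 16.2% without, while at lost and shared segments these libraries lay closer together.

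The reverse view started from the 1398 H3K4me3-gained segments and asked how many had an H2A.Z peak. With all deposited peaks the share was 58.0%, 75.1% and 45.4% in SDG2-ZF replicates 1, 2 and 3 and 62.2% and 51.8% in Col-0 replicates 1 and 2. The means of 59.5% ± 14.9 (SD, n = 3) in SDG2-ZF and 57.0% ± 7.38 (SD, n = 2) in Col-0 differed by 2.48 percentage points, less than the spread between libraries (exact two-sided permutation test over libraries, p = 1). The sets went opposite ways, with a difference of −10.6 points in SET4 and 23.3 points in SET5, as did the list lengths.

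With 12217 peaks in every list the share was 45.1%, 50.7% and 45.4% in SDG2-ZF and 40.4% and 37.6% in Col-0, and all SDG2-ZF libraries lay above both Col-0 libraries. The means were 47.1% ± 3.16 (SD, n = 3) in SDG2-ZF and 39.0% ± 2.02 (SD, n = 2) in Col-0, which is 8.08 points lower; the exact permutation test over libraries, two-sided, gave p = 0.1, the smallest that 3 against 2 libraries allow. The test shuffled libraries without regard to set, and shuffling within sets would leave fewer arrangements. Within SET4 the difference was 4.83 points, and within SET5, with lists cut to equal length there, 12.9 points. In the rdd pair, reduced to the same 12217 peaks, the share was 47.6% in SDG2-ZF in rdd and 34.8% in rdd. At the 15478 segments with H3K4me3 in both genotypes the order was not the same. There the shares were 40.1%, 33.4% and 36.6% in SDG2-ZF and 40.5% and 39.6% in Col-0, which puts SDG2-ZF at −3.37 points (exact permutation, two-sided, p = 0.3), and 33.5% in SDG2-ZF in rdd against 38.4% in rdd. Reducing the lists is a choice that ranks peaks by −log10 p, a value that itself depends on depth.

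**Figure D3:**
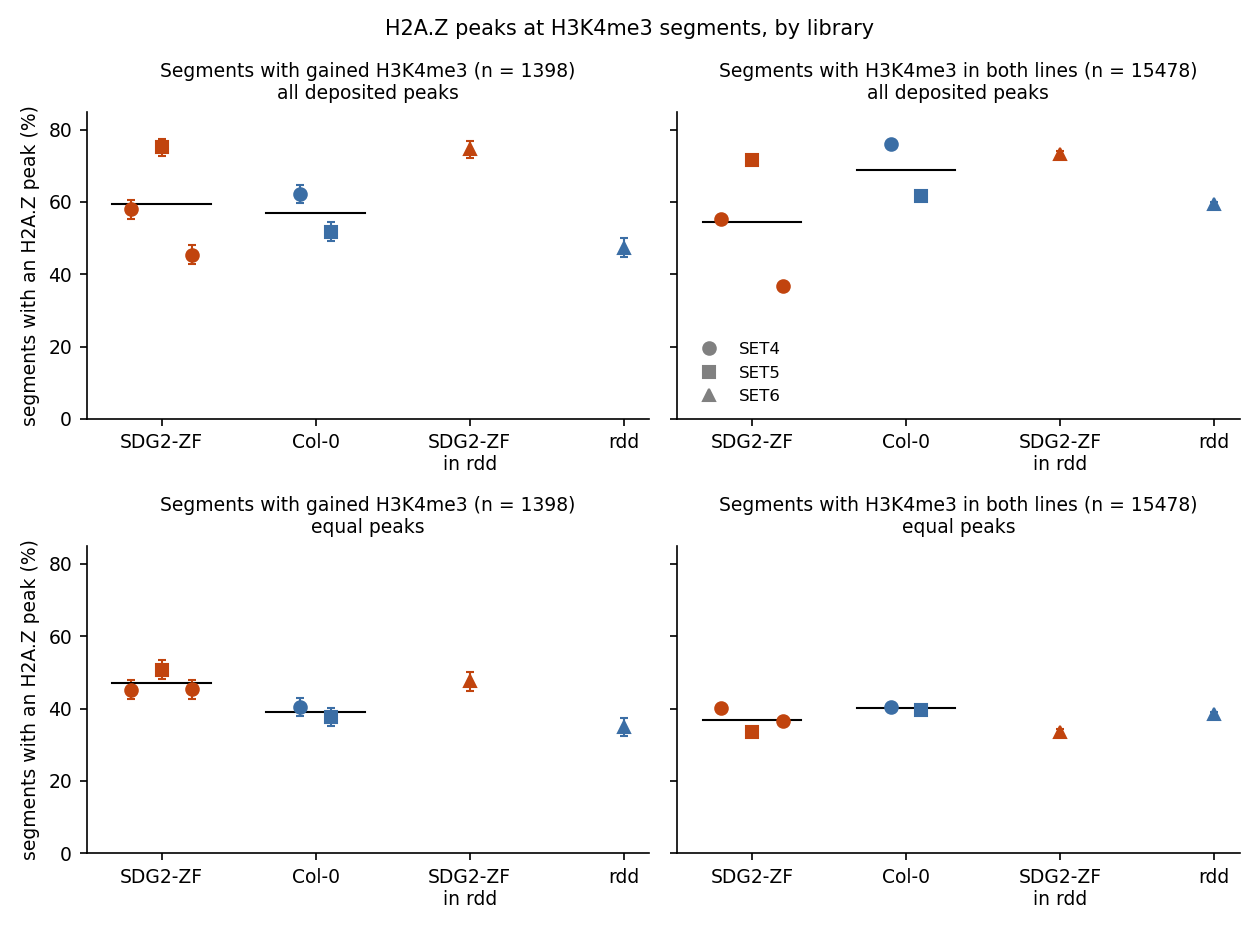
Share of H3K4me3 segments with an H2A.Z peak (vertical axis, percent) in each library, for segments with gained H3K4me3 (left) and with H3K4me3 in both genotypes (right), with all deposited peaks (top) or 12217 peaks per list (bottom). Symbols give the set, error bars the Wilson 95% interval of a library and lines the group means, and with equal lists the SDG2-ZF libraries lie at 45.1% to 50.7% of the segments with gained H3K4me3 and Col-0 at 37.6% and 40.4%.

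Few of the H3K4me3-gained segments had a peak in every library of 1 genotype and in none of the other. Such a count of called peaks does not measure changes in signal where both genotypes had a peak. The paper reported H2A.Z enrichment at zinc finger sites from input-normalised signal, which was not compared here. With equal lists, 52 of the 1398 (3.72%) had an H2A.Z peak in all 3 SDG2-ZF libraries and neither Col-0 library, and 6 (0.429%) showed the opposite pattern. A peak was present in all 5 libraries at 350 (25%) and in none at 519 (37.1%). At segments with H3K4me3 in both genotypes, 57 of 15478 (0.368%) had the SDG2-ZF pattern and 192 (1.24%) the Col-0 pattern. With all deposited peaks the 2 patterns were about equally frequent at H3K4me3-gained segments, 16 (1.14%) against 15 (1.07%), whereas at segments with H3K4me3 in both genotypes the SDG2-ZF pattern was seen at 6 (0.0388%) and the Col-0 pattern at 224 (1.45%).

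Each set was next called on its own with lists cut to the same number of peaks. SET4, with 12217 peaks per list, had 1252 gained segments of 8905 (14.1%) and 1848 lost segments of 12217 (15.1%). SET5, with 21273 peaks per list, had 4308 gained (20.3%) and 3381 lost (15.9%) of 21273 each. Many of these calls were differences in rank rather than in presence. A weaker peak of the other genotype lay in the full lists at 94.7% of the SET4 gains, 54.0% of the SET4 losses and 73.0% of the SET5 losses. No weaker peak lay at the SET5 gains, because the Col-0 list was the shorter one and was used whole. SET5 rests on 1 library per genotype and has no replicate check.

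The sets shared few calls. Of the SET4 gains 131 were also gained in SET5 (10.5%) and 65 (5.19%) were lost there, and 2.88% of the SET5 gains overlapped a SET4 gain. Of the SET4 losses 221 were also lost in SET5 (12%) and 108 (5.84%) were gained there, and 6.74% of the SET5 losses overlapped a SET4 loss. A segment of one set can overlap several of the other, so the shares of SET4 and SET5 count different segments. In SET5 as a whole, 20.3% of the SDG2-ZF segments were gained and 15.9% of the Col-0 segments lost. The share of all SET4 segments with each SET5 call was not counted. Whether 131 and 221 exceed that background therefore cannot be told. Of the 68 gained segments, 33 were gained in SET4, 50 in SET5 and 26 in both. Of the 462 lost segments, 457 were lost in SET5 but 32 in SET4, the set with the long Col-0 list and short SDG2-ZF lists. The same lists made the pooled calls, so these counts do not measure agreement between the sets. In SET5 the Col-0 list was used whole, so most pooled losses stayed losses there by the rule. In SET4 it was cut from 28280 to 12217 peaks.

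The rdd pair, which entered none of these calls, was compared in the same way with 21066 peaks per list and had 5444 gained (25.8%) and 3753 lost (17.8%) of 21066 segments. Of the 131 segments gained in both sets, 62 (47.3%) were gained and 2 (1.53%) were lost in rdd. Of the 68 gained segments, 38 (55.9%) were gained and 2 (2.94%) were lost there. Over all 8905 SDG2-ZF segments of SET4, 4.78% were gained and 2.68% lost in rdd. Of the SET4 and SET5 gains, 14.9% and 33.3% were gained in the rdd pair and 4.79% and 7.82% lost. Of the SET4 and SET5 losses, 17.5% and 13.7% were gained there and 12.9% and 15.8% lost. Of the 221 segments lost in both sets, 18.6% were gained and 16.7% lost. Shares above that of all SET4 segments were thus found among lost segments too. The rdd library had fewer mapped reads than its partner, and the part this played was not tested. The full list of SDG2-ZF in rdd held 30556 peaks and that of rdd 21066. In these a peak was listed at 61 of the 68 gained segments (89.7%) with SDG2-ZF and at 11 (16.2%) without. Lost segments did not carry over in this way. Of the 462, 72 (15.6%) were gained and 86 (18.6%) were lost in the rdd pair, and a peak lay at 65.8% of them in SDG2-ZF in rdd against 30.1% in rdd.

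Segments gained in both sets again included extensin genes. The strongest by lowest fold was a second segment of AT5G06630, with 3.73, 4.11 and 4.86 in SDG2-ZF and 2.24 in Col-0 replicate 1. EXT12, XTH33, AT1G14500 and the extensin gene AT3G54580 were among the first 10 as well. AT2G32210, a small cysteine-rich membrane protein gene, had 3.02, 3.86 and 3.05 in SDG2-ZF against 2.25 in Col-0 replicate 1 and no peak in replicate 2. AT3G28956, annotated with an RNA polymerase II Rpb4 core domain, had 3.0, 4.31 and 3.28 against 1.9 and no peak, over a segment whose midpoint lay upstream of it in an intron of AT3G28958. The remaining members of the first 10, AT4G34480 and the heavy metal transporter gene HMA3, were covered by peaks of near-equal fold in both libraries of the rdd pair. H3K4me3-gained segments were overlapped by 19 of the 131 (14.5%) and by 4 of the 221 lost in both sets (1.81%). In SET4 on its own they were overlapped by 7.19% of the 1252 gained, 5.55% of the 7653 shared and 1.03% of the 1848 lost segments. In SET5 the shares were 4.69% of 4308 gained, 4.06% of 16965 shared and 2.04% of 3381 lost segments. The gap between gained and shared segments was thus small within each set.

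The lost segments had no member with a fold above 3.70 in Col-0, and their median folds were 2.11 and 2.50 in Col-0 replicates 1 and 2. The 10 with the highest lowest fold were SRS7 (AT1G19790), a zinc finger gene of organ development (2.92 and 2.95 in Col-0), the ribosomal protein gene AT3G13580 (2.98 and 2.92), AT1G03010 of the phototropic NPH3 family (2.89 and 3.23), AT4G03298, AT2G25270, AGL18 (AT3G57390), CVL1, GNC (AT5G56860), UGP1 and AT4G13780. AGL18, a MADS box repressor of flowering, had 2.86 and 3.70 in Col-0, and GNC, a GATA factor of chloroplast development, had 2.80 and 2.99. Neither had a peak over the segment in any SDG2-ZF library of SET4 or SET5. Neither had one in rdd, and GNC had a peak of 1.67 in SDG2-ZF in rdd. Of these 10, AT4G03298 alone was also lost in the rdd pair.

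Among the strongest segments lost in both sets, peaks were usually weaker in SDG2-ZF and not absent. The pseudogene AT1G09486 led, with 1.74 and 1.66 in SDG2-ZF replicates 1 and 2, no peak in replicate 3, and 3.85 and 3.75 in Col-0. AT2G11140 had 1.77 and 1.77 in SDG2-ZF replicates 1 and 2 against 3.49 and 4.37 in Col-0, with the midpoint upstream of it in a coding exon of AT2G11035, and the pectin methylesterase gene PME2 had 1.72 and 1.66 against 3.19 and 4.10. ABCB12, CAC1, FH3, CYCB2;3, AT2G34730, AT2G43740 and AT1G09160 completed the first 10. SDG2-ZF replicate 3, the shortest list, had no peak over any of these 10.

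Gained and lost segments differed in where they lay. Gained segments had their midpoint in a coding exon in 51 of 68 cases (75%) and a median of 1090 bp from the nearest start of a coding gene. Lost segments were in coding exons in 37.0%, in introns in 29.4% and in the 5′ UTR in 16.9% of cases, a median of 352 bp from a start. Shared segments were in coding exons in 83.4% and a median of 444 bp from a start. More than 1 kb from any start lay 51.5% of gained, 17.5% of lost and 16.4% of shared segments. Median GC content was 44.5% in gained, 37.6% in lost and 46.6% in shared segments, and there were 2.95, 2.66 and 5.08 CG dinucleotides per 100 bp. Lost and gained segments were both poorer in CG than shared ones.

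**Figure D4:**
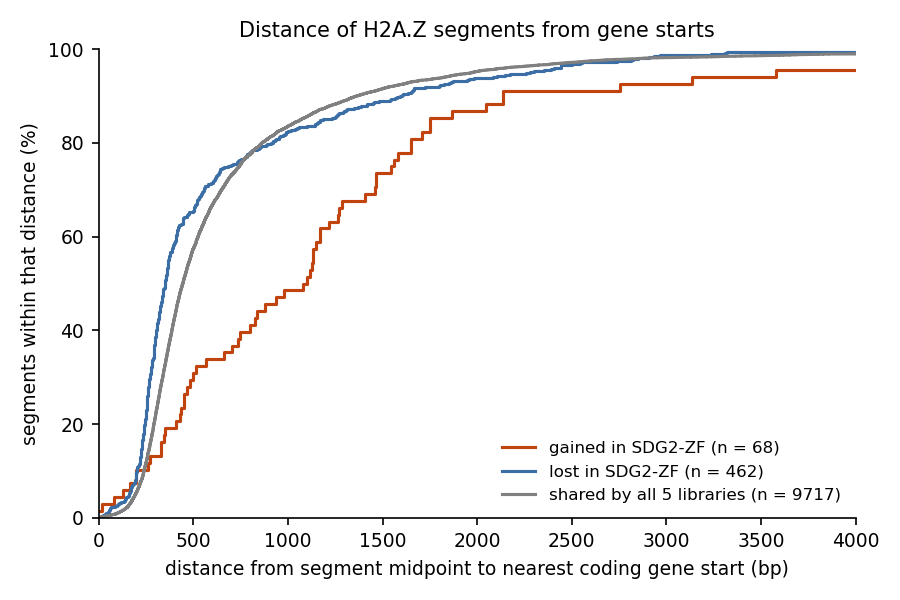
Cumulative share of segments (vertical axis, percent) within a given distance of the nearest start of a coding gene (horizontal axis, bp, measured from the segment midpoint). The curve of the 68 gained segments lies to the right, with a median of 1090 bp against 352 bp for the 462 lost and 444 bp for the 9717 shared segments.

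Short motifs were counted on both strands in the 300 bp around each midpoint. The added motif TCNCCNCCNCC, chosen after the sequences above were seen, occurred in 11 of 68 gained (16.2%), 1.95% of lost and 6.12% of shared windows and in 1.09% of all 300-base stretches of the genome. GAGAGA occurred in 33.8% of gained, 43.9% of lost and 42.8% of shared windows against 24.3% of the genome, and TATAAA in 16.2%, 21.6% and 9.66% against 34.9%. The bZIP and bHLH core CACGTG was found in 4.41%, 2.16% and 6.88% against 3.26%, the W-box core TTGACC in 5.88%, 7.79% and 12.5% against 11.8%, and the heat shock element GAANNTTC in 11.8%, 17.1% and 14.2% against 11.8%. None of these motifs contains another of them. A match is only a description of the letters.

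At FWA, called H2A.Z peaks were not present in every SDG2-ZF library, unlike H3K4me3 peaks, which came from the separate libraries of SET1. The paper reported strong H2A.Z enrichment over FWA in SDG2-ZF plants from signal tracks. Such signal was not compared here, and called peaks do not measure it. An H3K4me3 peak lay over the start in SDG2-ZF replicates 1, 2 and 3 with folds of 3.54, 5.69 and 3.76 and was absent in Col-0. An H2A.Z peak lay there in SDG2-ZF replicate 1, from 401 bp before to 498 bp after the first base with a fold of 4.16, and in SDG2-ZF in rdd, from 149 bp before to 41 bp after with a fold of 2.95. SDG2-ZF replicates 2 and 3, both Col-0 libraries and rdd had none at the start. Over the gene body the order was the other way. The lost segment at chr4:13041492-13041701 (210 bp, coding exon) had folds of 2.05 and 2.44 in Col-0 and no SDG2-ZF peak, but in SET6 it had 2.56 in SDG2-ZF in rdd and 3.78 in rdd. Of the flanking genes, SLK1 had no H2A.Z peak in any of the 5 libraries, and MSH3, of DNA mismatch repair, had 4.24, 5.46 and 4.07 at its start in SDG2-ZF against 3.95 and 1.96 in Col-0.

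**Figure D5:**
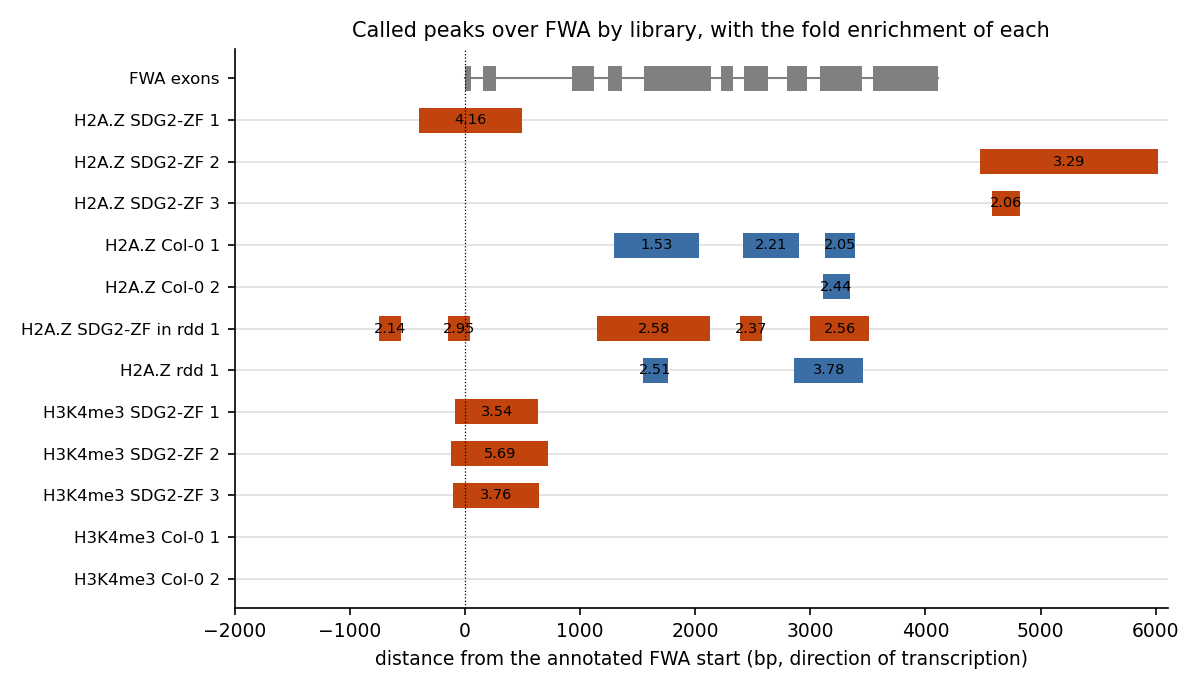
Peaks over FWA by library (vertical axis) against the distance from the annotated start (horizontal axis, bp), with the fold of each peak written on it and exons in grey. H3K4me3 peaks stand at the start in all 3 SDG2-ZF libraries, while an H2A.Z peak stands there in SDG2-ZF replicate 1 and in SDG2-ZF in rdd, and both Col-0 libraries share an H2A.Z peak over 3000 bp into the gene.

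The genes used in the construct gave 2 further values. SDG2 itself had a start peak of 2.15 in SDG2-ZF replicate 2 and none in replicates 1 and 3, against 1.9 and 2.95 in Col-0. UBQ10, whose promoter drives the fusion, had 7.01 and 9.49 in SDG2-ZF replicates 1 and 3 against 7.88 in Col-0 replicate 1, all of SET4, and no peak in either library of SET5. Peaks at photosynthesis genes split by set as well, at 12, 5 and 10 of 12 starts in SDG2-ZF replicates 1, 2 and 3 and at 12 and 2 in Col-0 replicates 1 and 2. In the H3K4me3 lists, 11 of the 12 photosynthesis genes and 0 of 3 pollen genes had a start peak in each of the 5 libraries. Floral organ genes had 1 to 3 of 8 in SDG2-ZF and 1 in Col-0, root genes 2 of 4 in every library, and seed genes 2 of 9 in SDG2-ZF and 0 in Col-0.

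Peak height at gene starts was compared in the 8203 coding genes with a start peak in all 5 libraries. With log2 folds, quantile normalisation and set as a covariate, limma called 0 starts higher and 0 lower in SDG2-ZF at an adjusted p under 0.05 (0% each, lowest adjusted p 0.269). At an unadjusted p under 0.05, 293 were higher (3.57%) and 166 lower (2.02%). The starts with the lowest p among higher ones were those of DDF2 (ddf2, AT1G63030), a DREB-type factor of the cold and drought pathway, with folds of 4.87, 7.72 and 4.67 in SDG2-ZF and 1.55 and 4.61 in Col-0 (log2 change 1.41, SE 0.20). AT2G48080 had 3.82, 5.14 and 3.55 against 1.54 and 2.09, and AT4G20830 and AT4G20835, which lies inside it on the other strand and shares its peak, had 3.94, 4.58 and 4.02 against 1.53 and 1.97. At these starts all SDG2-ZF folds lay above all Col-0 folds. Among lower ones, AT1G66620 had 2.63, 1.67 and 2.72 in SDG2-ZF against 5.11 and 6.14 in Col-0, and AT1G72600 had 2.67, 3.58 and 2.56 against 7.87 and 5.02. ORC1B, of the replication origin complex, and its divergent neighbour AT4G12640 shared 1 peak with 2.22, 1.67 and 1.98 against 3.83 and 4.58 (log2 change −0.94, SE 0.20). None of these passed the adjustment in limma.

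Of the 8203 starts, 420 lay on an H3K4me3-gained segment. Their median log2 change was 0.04 with 55% positive, and 33 were higher and 7 lower at an unadjusted p under 0.05 in limma. The other 7783 had a median of −0.01 with 48.2% positive, and 260 were higher and 159 lower. Within sets the median at H3K4me3-gained starts was 0.00 in SET4 and 0.09 in SET5, against −0.02 elsewhere in either set.

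Among 178 genes of 21 lists that cover chromatin factors, flowering, stress and hormone responses and tissue markers, few had a gained or lost segment in their region. FUS3 was the one with a gained segment. Lost segments lay at 6, namely FWA, ARP5, DML2, AGO4, HSP101 and PP2AA3, against the 1.87% of all coding genes given above. ARP5, a subunit of the INO80 remodeller that acts on H2A.Z nucleosomes, had 2.17 and 2.28 in Col-0 in an intron, the DNA demethylase gene DML2 had 2.06 and 1.97 in the 5′ UTR, and the Argonaute gene AGO4 of RNA-directed DNA methylation had 2.27 and 2.16 in an intron. The segments counted for HSP101 and PP2AA3 lay upstream of these genes, inside the neighbours AT1G74320 (1.87 and 2.2 in Col-0) and AHP2 (2.64 and 3.48). In both sets with equal lists, PRR9 of the circadian clock and FUS3 were gained, and the jasmonate-responsive VSP2, the flowering repressor MAF4 and PP2AA3 were lost, where 0.499% of all coding genes were gained and 0.958% lost. The lost segment of MAF4 had a fold of 2.2 in SDG2-ZF replicate 1 and no peak in replicates 2 and 3, against 2.63 and 2.93 in Col-0, although MAF4 also carried an H3K4me3-gained segment. In limma no member of any list passed the adjusted threshold.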

How the data were processed

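H2A.Z peak lists of 5 leaf libraries were analysed, with lists of H3K4me3, H3K14ac, Myc and the rdd pair beside them. The submitters' processing notes name Trim Galore 0.6.5 for trimming, Bowtie2 2.1.0 for mapping (to TAIR10) and SAMtools 1.9 for removal of duplicates. Tracks were made with deepTools 3.1.3, and peaks were called per library with MACS2 2.2.1, although a software list of the study names another MACS2 version. No control library is named among the peak-calling parameters. Each line deposited by the authors holds a peak with its fold enrichment (a ratio), the −log10 of p and q and the summit position. The −log10 p grows with read depth, which the lists do not hold. Median folds were 2.42 and 2.55 in SDG2-ZF replicates 1 and 3 and 2.39 in Col-0 replicate 1 (SET4). In SET5 they were 2.81 in SDG2-ZF and 2.89 in Col-0, so the longer list of each set did not have the higher median. How folds depend on depth was not tested. The study lists fewer mapped reads for SDG2-ZF than for Col-0 in SET4 and more in SET5. In SET6 it lists more for SDG2-ZF in rdd than for rdd, which had the fewest of the H2A.Z libraries. Wilson 95% intervals cover counting error only.

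Intervals that a list repeated (220 to 499 in SET4 and SET5) were counted once, and organelle peaks were left out. Peaks were placed on the RefSeq annotation of the same assembly. A segment belongs to the gene region it overlaps most, and its place is that of its midpoint. Group shares were compared by exact two-sided permutation over libraries, without regard to set. Folds at gene starts were log2-transformed, quantile normalised and fitted with genotype and set in limma 3.58.1 (R 4.3.3), with Benjamini-Hochberg adjustment. Scripts in Python 3.11.15 did the rest, and the fits were tested on simulated data. Genes named are FWA and its neighbours, the construct genes, list members with a gained or lost segment, the 10 gained, lost, gained-in-both and lost-in-both segments with the highest lowest fold, and 4 starts each way by p in limma. Members, lists and tests were chosen with earlier results of these data known. The extensin list, TCNCCNCCNCC and the genes singled out among the 16 H3K4me3-gained overlaps were chosen after their values were seen. Replicate numbers 1 and 2 mark SET4 and SET5. Deviations from the group mean at starts were weakly correlated between same-numbered libraries (r = 0.111 and 0.211). The 2 values are not independent, because the deviations of the 2 Col-0 libraries mirror each other. SDG2-ZF replicate 3 has no partner of its number but shares SET4 with Col-0 replicate 1.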

Additional observations from a re-analysis of the deposited data

Results flagged for a closer look

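Several differences between SDG2-ZF and Col-0 had opposite signs in the 2 sets. The number of peaks, SDG2-ZF minus Col-0, was −12842.5 in SET4 (mean of 2 SDG2-ZF libraries against 1 Col-0 library) and 7779 in SET5. The share of coding gene starts with an H2A.Z peak differed by −30.6 percentage points in SET4 and by 12.2 in SET5. The share of H3K4me3-gained segments with an H2A.Z peak differed by −10.6 points in SET4 and by 23.3 points in SET5 with all deposited peaks. Each set held 1 Col-0 library, so these differences between the sets were not tested.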

How the results depend on the processing

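The counts of segments moved with list length, minimum width and single libraries. The 68 gained segments became 333 with equal peaks, 21 at a minimum of 300 bp and 87 to 724 with 1 library left out (724 without Col-0 replicate 1, 325 without SDG2-ZF replicate 3, 205 without replicate 1 and 132 without replicate 2). The 462 lost segments became 115 at 300 bp and 477 to 4747 with 1 library left out (4747 without SDG2-ZF replicate 2, 3219 without Col-0 replicate 2). Called within paired replicate numbers as a block, 271 were gained and 452 lost. With all deposited peaks, SET4 had 151 gained and 10502 lost and SET5 had 9666 gained and 913 lost, and both sets together had 56 gained and 436 lost. At 300 bp SET4 had 652 gained, SET5 had 1875 lost and both sets 63 gained, and with the top 10000 peaks both sets had 263 gained. The settings for calls in both sets, and equal peaks for the H3K4me3-gained share, within sets and with libraries left out, were chosen after seeing the data. The difference in that share, 2.48 points with all peaks, turned to −0.274 at −log10 q of at least 5 and to −10.6 within SET4. It ran from −5.33 (without SDG2-ZF replicate 2) to 9.55 with 1 library left out, at −2.74 without Col-0 replicate 2, and was 9.55 with the block of paired numbers. With equal peaks it ran from 6.26 to 9.51. Calls in limma stayed at 0 in every alternative, with lowest adjusted p from 0.083 to 0.825 and 0.465 with the block. Why these values moved was not tested. Depth is unknown from the lists, so a peak missing from a short list does not show that H2A.Z was absent.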
